A study of Mus musculus with 6 samples.

Results

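The 6 xenograft tumours of the series were sorted by how much skeletal muscle RNA of the host each library held, and the groups were chosen by the measured counts of 4 genes. In the mouse count table the counts of Ckm, Acta1, Myh1 and Myh4 were summed and divided by all counts of named genes in that library. The 3 libraries with the highest share (MBZ_259, NC4 and NC9) are called muscle-rich and the 3 with the lowest (NC10, MBZ_257 and MBZ_254) muscle-poor, so that the comparison used 6 of the 6 libraries. The last library inside the muscle-rich group, NC9, had a share of 0.1381% and the nearest library outside it, NC10, a share of 0.03031%.

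Each tumour was grown from DU145, an established human prostate cancer cell line, injected under the skin of male nude mice, which were randomized once a tumour could be felt. Nude mice lack a working thymus and so most T cells, while other white cells of the host remain. The label control belongs to NC4, NC9 and NC10 and the label Zelnorm to MBZ_254, MBZ_257 and MBZ_259. Zelnorm was given daily by mouth with no dose stated, and the labels leave the prefix MBZ unexplained. The muscle-rich group held 2 control and 1 Zelnorm libraries and the muscle-poor group 1 control and 2 Zelnorm libraries. The labels do not say whether each library came from a separate mouse, so p-values measure the spread between these libraries, and treatment was ignored except where a value with it is given.

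Counts were deposited in 2 tables for the same 6 libraries, a human and a mouse one, holding mainly tumour and host RNA. Totals ran from 24602178 to 39278195 counts in the human table and from 5817165 to 9228446 in the mouse table. The mouse totals of the muscle-rich libraries (9050985 in MBZ_259, 7653012 in NC4, 9228446 in NC9) all lay above those of the muscle-poor ones (6158251 in NC10, 5817165 in MBZ_257, 7503977 in MBZ_254), with a 2-sided exact permutation p of 0.1, the smallest that 3 against 3 allows. The part of this difference in depth in the results below was not tested. The mouse table held 20.3% ± 1.70 of all counts in the muscle-rich and 19.2% ± 4.14 in the muscle-poor libraries (SD, n = 3 each), a difference of 1.09 percentage points (2-sided exact permutation p = 0.8), and its sign turned to -0.985 without MBZ_257. In bulk tumour RNA, fewer cells of a type and less RNA per cell cannot be told apart.

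Skeletal muscle fibres are long fused cells filled with sarcomeres, in which myosin filaments pull on thin filaments of alpha-actin under the control of troponin and calcium. Fast fibres carry the myosins Myh4, Myh1 and Myh2 and slow fibres Myh7, while Myh3 and Myh8 are the embryonic and perinatal myosins, which muscle makes before birth and again in fibres that are regrowing. Muscle genes are switched on by the MyoD family of factors at E-boxes, by MEF2 factors at AT-rich elements and by serum response factor at CArG boxes. The panniculus carnosus, a thin muscle sheet, lies in the skin of mice.

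The stretches ahead of 3 of the 4 sorting genes and of Myog, the myogenic factor that marks differentiating muscle cells, are shown because these genes separated the libraries. Each runs from 250 to 21 bases before the gene's start in RefSeq, on build GRCm38.p6, written 5′ to 3′ along the gene's strand. Capitals mark E-boxes (CANNTG), CArG boxes (CCWWWWWWGG) and MEF2 elements (YTAWWWWTAR), searched on both strands, with W for A or T, Y for C or T and R for A or G. Only exact matches were marked, so sites that differ from these patterns by a single base were passed over. Ckm lies at chr7:19410844-19411073 on the + strand, Acta1 at chr8:123894796-123895025 on the - strand, Myh4 at chr11:67237562-67237791 on the + strand and Myog at chr1:134289754-134289983 on the + strand.
Ckm: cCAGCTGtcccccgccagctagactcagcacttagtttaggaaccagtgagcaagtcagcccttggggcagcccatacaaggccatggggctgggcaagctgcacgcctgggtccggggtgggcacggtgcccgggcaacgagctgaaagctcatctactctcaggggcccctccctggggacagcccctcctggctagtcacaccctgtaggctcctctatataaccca
Acta1: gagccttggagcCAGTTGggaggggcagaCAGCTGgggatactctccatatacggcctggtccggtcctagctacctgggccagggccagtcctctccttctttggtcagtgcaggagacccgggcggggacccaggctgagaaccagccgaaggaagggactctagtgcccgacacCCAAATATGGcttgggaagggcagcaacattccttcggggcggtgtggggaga
Myh4: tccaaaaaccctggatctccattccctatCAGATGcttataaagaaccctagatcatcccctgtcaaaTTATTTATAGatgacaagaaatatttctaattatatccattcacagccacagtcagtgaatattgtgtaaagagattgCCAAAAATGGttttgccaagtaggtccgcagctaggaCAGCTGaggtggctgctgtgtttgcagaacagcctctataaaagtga
Myog: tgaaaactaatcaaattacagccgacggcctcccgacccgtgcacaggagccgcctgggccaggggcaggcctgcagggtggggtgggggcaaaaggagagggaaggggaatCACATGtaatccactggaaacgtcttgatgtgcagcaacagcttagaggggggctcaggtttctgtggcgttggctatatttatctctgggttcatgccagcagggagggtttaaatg
By exact match these 230-base windows held 1 E-box for Ckm, 2 E-boxes and 1 CArG box for Acta1, 2 E-boxes, 1 MEF2 element and 1 CArG box for Myh4, and 1 E-box for Myog. Over 32851 promoter windows of the same length, 63.5% held an E-box, 2.75% a MEF2 element and 1.41% a CArG box. No motifs marked here overlapped, and a match is a run of letters, not a bound site.

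The 4 sorting genes were chosen for their levels, so their values are a description with no test. Levels below are CPM (counts scaled to library size, with the TMM factors of edgeR), listed for MBZ_259, NC4 and NC9 and then for NC10, MBZ_257 and MBZ_254. Acta1, the alpha-actin of skeletal muscle thin filaments (chromosome 8, 123891769 to 123894751, GRCm38), stood at 2120, 891 and 664 CPM and then at 156, 135 and 67.8. Myh4, the fastest myosin, stood at 1210, 517 and 299 CPM and then at 85.1, 0.74 and 0. Ckm, the muscle creatine kinase that buffers ATP, stood at 744, 254 and 140 CPM and then at 32.6, 0.37 and 0.381.

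The muscle-poor group was thus not uniform. NC10 kept a low but clear level of each of these genes, while MBZ_257 and MBZ_254 were at or near 0 for all but Acta1. Myh1, another fast myosin, stood at 339, 224 and 274 CPM and then at 24.2, 0 and 1.02. Acta1 shares most of its coding sequence with other actins, among them the smooth muscle actin Acta2, which had 1459 to 2554 counts in every library, so the 534 to 975 Acta1 counts of the muscle-poor libraries may be split between copies and are uncertain.

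**Figure D1:**
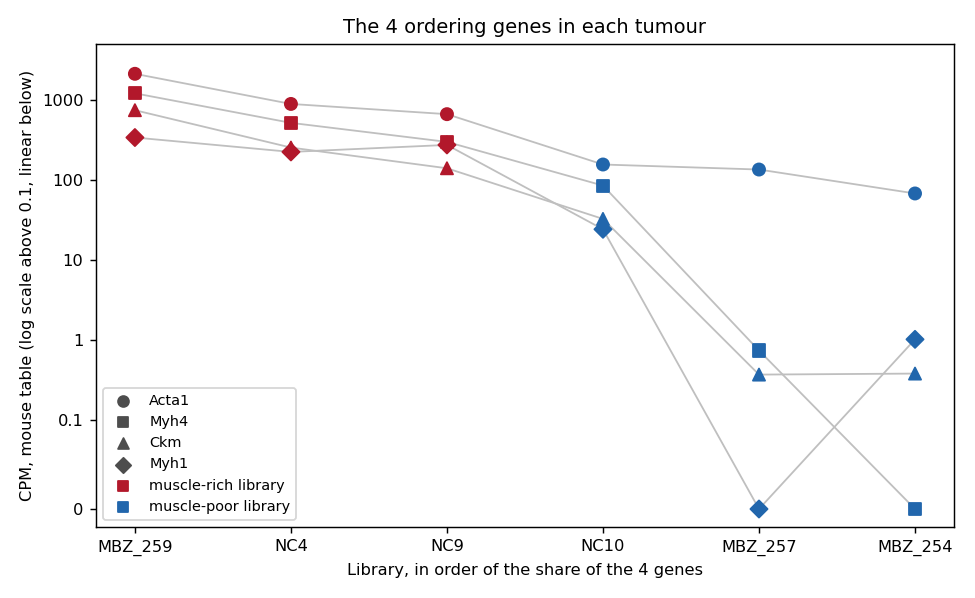
Level of Acta1, Myh4, Ckm and Myh1 in each library of the mouse table in CPM (log scale above 0.1, linear below), with libraries in order of the share of the 4 genes and colour for the group. NC10 lies between the muscle-rich libraries and the other muscle-poor ones for Myh4, Ckm and Myh1.

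The share of the 4 genes ran from 0.4282% in MBZ_259 through 0.1909% in NC4 and 0.1381% in NC9 to 0.03031% in NC10, 0.01273% in MBZ_257 and 0.007301% in MBZ_254. The highest was 58.7 times the lowest, and the step between NC9 and NC10 was 4.56-fold. Summed over all 96 symbols of the skeletal muscle lists, the step shrank to 1.72-fold (0.8558% in NC9 against 0.4989% in MBZ_257), with the same 3 libraries on each side. Those lists include widely expressed genes such as Aldoa and Tpm3.

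Of the 96 listed muscle genes, 81 passed the filter on low counts, 77 were higher and 4 lower in the muscle-rich libraries, and the groups did not overlap for 68. Over the 14459 genes tested in the mouse table the groups did not overlap, higher, for 5.01%. The median of the 81 was 4.17 on the log2 scale, beside -0.02 over all genes. Since the sorting used genes of this programme, nothing is read from these counts beyond their size.

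Of the 81, 56 differed by more than 3 on the log2 scale and 18 by less than 1 in either direction, with the rest in between. Among the 56, MBZ_259 was the highest library for 51, and NC10 lay above both other muscle-poor libraries for 50. NC10 held a median of 8.64% of the muscle-rich mean over these 56 genes, from 0% to 20.5%. At least 1 of MBZ_257 and MBZ_254 had 0 counts for 28 of them, both did for 9, and NC10 did for 2.

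Contractile genes of fast fibres had the highest list median, 4.76, and all 22 members lay apart. Tpm1, a tropomyosin that many cell types also make, differed least, at 876, 577 and 585 CPM against 567, 396 and 515 (log2 difference 0.46). The groups did not overlap for Tpm1, but the gap between NC4 and NC10 was small. Of 10 genes of slow fibres only 6 passed the filter, with a median of 4.73. Mybpc1, a myosin-binding protein of the thick filament, stood at 169, 53 and 52.4 CPM against 6.25, 0.37 and 0.127. Tpm3 and Tnnc1, a slow tropomyosin and a slow troponin made in other tissues too, overlapped between the groups, with log2 differences of -0.35 and -0.01. Both had more human counts, with a mean of 19780 beside 5157 mouse counts for Tpm3 and 342.2 beside 177.7 for Tnnc1.

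Calcium handling genes had a median of 3.87 over 16 members. Ryr1, the channel that releases calcium from the store of the fibre, stood at 216, 128 and 132 CPM against 17.3, 7.4 and 3.68. Atp2a1, the fast-fibre pump that returns calcium, stood at 854, 371 and 239 CPM against 49.5, 3.15 and 1.02. Atp2a2, the form of the pump that most other cells use, stood at 927, 834 and 783 CPM against 688, 1000 and 607 and overlapped. The fibre pump thus separated the groups in the mouse table and the widely used pump did not. The human table held more counts at ATP2A2, a mean of 30880 per library beside 6042 at mouse Atp2a2. How reads were divided between the species is not stated, and its part in these levels was not tested.

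Energy genes had a median of 3.57 over 17 members. Pfkm, the muscle form of phosphofructokinase, stood at 192, 113 and 112 CPM against 71.5, 99 and 48.4. Aldoa, the aldolase of muscle and of many other cells, stood at 2080, 1830 and 1600 CPM against 1410, 2430 and 1400, and MBZ_257 was the highest library of all for it. The human table held a mean of 42620 counts at ALDOA beside 13340 at mouse Aldoa, and 2022 at PFKM beside 823.5 at Pfkm. At the fibre membrane and the nerve contact the median over 12 genes was 4.08. Scn4a, the sodium channel that carries the fibre's action potential, stood at 34.5, 11 and 11.1 CPM against 1.12, 0.37 and 0.381. Dmd, the dystrophin gene, overlapped at 27.4, 22.6 and 25.3 CPM against 24.2, 20.4 and 30.5.

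Regulators of the muscle programme were low in counts but followed the fibres. Of 12 myogenic and satellite cell genes 8 passed the filter, with a median of 3.28. Myog had 80, 39 and 53 counts in the muscle-rich libraries and 1, 1 and 0 in the muscle-poor ones, so that the groups lay far apart. Des, the desmin filament that ties sarcomeres together, stood at 555, 248 and 259 CPM against 50.5, 21.5 and 26.3. Mef2c, a factor with roles outside muscle, overlapped (log2 difference 0.31).

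Myosin heavy chains differ by fibre type, so their shares describe the make-up of the muscle counts. Per exon length, Myh4 made up 58.0% of 7 sarcomeric myosins in MBZ_259, 55.7% in NC4 and 62.0% in NC10, and 35.3% in NC9. NC9 held more Myh1 in its place, 31.9% against 16.1% in MBZ_259, 23.8% in NC4 and 17.4% in NC10. NC10, on only 864 myosin counts, thus had a Myh1 share between those of MBZ_259 and NC4 and a Myh4 share just above theirs. Myh7, the slow myosin, had 59, 2 and 40 counts in MBZ_259, NC4 and NC9 and 0 in the other 3 libraries.

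In the mouse table the embryonic myosin Myh3 was the main one in the libraries with the least muscle, on few counts. It had 754, 416 and 751 counts in MBZ_259, NC4 and NC9 and 38, 52 and 23 in NC10, MBZ_257 and MBZ_254. Its share per length was 4.1%, 5.77% and 9.54% in the muscle-rich libraries and 4.38% in NC10, but 86.7% in MBZ_257 and 65.8% in MBZ_254. These last shares rest on 60 and 35 myosin counts in all, and the myosin genes are near-identical over long stretches, so reads may be split between them. The human table held more counts at MYH3 in the muscle-poor libraries, 120, 162 and 116, beside 231, 141 and 216 in the muscle-rich ones. The part of read division between the species in these shares was not tested. A list of 9 embryonic and perinatal muscle genes, put together after values were seen, had 8 members past the filter and a median of 3.79, and Myl4, an embryonic light chain, stood at 12.7, 14.3 and 20.6 CPM against 1.6, 0.925 and 0.508.

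**Figure D2:**
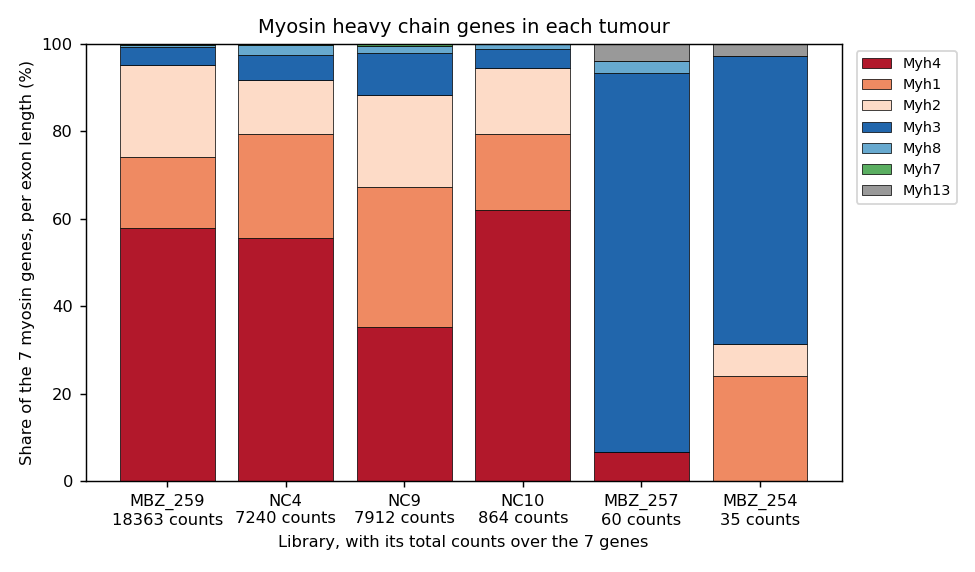
Share of 7 myosin heavy chain genes per exon length in each library (stacked bars, %), with the total counts over these genes under each library. Fast myosins fill most of the bar in the 3 muscle-rich libraries and in NC10, and Myh3 fills 86.7% and 65.8% in MBZ_257 and MBZ_254, on 60 and 35 counts.

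Of the genes tested in the mouse table, 46 passed an edgeR quasi-likelihood test at a Benjamini-Hochberg adjusted p under 0.05, all of them higher in the muscle-rich libraries, which is 0.318% of the 14459 tested. Acta1, which helped to define the groups, is 1 of the 46, and nothing is read from its call. None was lower, beside 204 lower genes at an unadjusted p under 0.05, 7 lower by DESeq2 and 0 by limma-voom. Both directions together held 643 mouse genes at that unadjusted level, fewer than the 723 that chance alone would give on average. Of the 46, 16 were on the skeletal muscle lists and 30 were not, which is 0.209% of the genes off the lists. Leaving out NC4 left 4 calls, leaving out NC9 left 6 and leaving out MBZ_257 left 0 (1076 genes at an unadjusted p under 0.05), while leaving out NC10 gave 79. DESeq2 called 165.

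Those off the lists with the smallest p included further genes of the fibre, given without reading a test from them. Synpo2l, a Z-disc protein, stood at 32.2, 17.1 and 13.9 CPM against 0.321, 0.185 and 0.127. Myom3, a protein of the M-band that links thick filaments, stood at 16.3, 16.2 and 8.47 CPM against 0.321, 0 and 0.127. Rbm24, a splicing regulator of muscle, stood at 8.8, 6.22 and 5 CPM against 0.16, 0.185 and 0.127. Each of the 3 was at 1 or 2 counts, or at 0, in every muscle-poor library.

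Among the 30 were also genes of the Z-disc. Ankrd23, an ankyrin repeat protein that binds titin, stood at 171, 68.8 and 93.4 CPM against 9.78, 4.07 and 4.32, and Pdlim3, a Z-disc adaptor, at 87.1, 58.1 and 33 CPM against 4.81, 2.59 and 1.65. Many of the 46 passed the filter on low counts only through the muscle-rich libraries, and nothing is read from their calls. Cox6a2, for example, had 3, 0 and 1 counts in NC10, MBZ_257 and MBZ_254. For 3 of them, which had no count in any muscle-poor library, no fold is given. These are Lmod3, a thin-filament nucleator (147, 72 and 67 counts), Adprhl1 (54, 24 and 47) and the pseudogene Pgam1-ps2 (57, 71 and 86), whose reads may belong to related phosphoglycerate mutase genes.

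Genes that are not known mainly from muscle were among the 30 too, such as Clu, the secreted chaperone clusterin, singled out after its values were seen. It had 531, 470 and 434 counts in the muscle-rich and 146, 92 and 190 in the muscle-poor libraries, a log2 difference of 1.38 with an edgeR adjusted p of 0.0411, and the groups did not overlap. An adjusted p depends on the other genes tested, here with the muscle genes among them. When the skeletal muscle lists were left out, 14 of the 30 kept their call, so nothing is read from the call of Clu. The human table held far more CLU, with 18026, 16113 and 16096 counts against 9303, 17159 and 7798, which overlapped (log2 difference 0.35 ± 0.21 SE, edgeR adjusted p = 0.995). Of the 46 called mouse genes, 13 had more counts at the same symbol in the human table. The labels and tables do not state how reads were divided between the species, and the part of that step in Clu was not tested.

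Of the lists for tissues that can lie beside muscle under the skin, those of fat, tendon, fibroblasts and endothelium had medians above that of all genes. No member of these lists, nor of the nerve and keratinocyte lists, passed the edgeR test at an adjusted p under 0.05. For adipocytes all 17 genes past the filter were higher, with a median of 0.73, where 46.5% of all genes were higher. Car3, the carbonic anhydrase of fat that muscle also makes, stood at 142, 384 and 264 CPM against 116, 38.3 and 53.2 (log2 difference 1.93 ± 0.47 SE, edgeR adjusted p = 0.257). DESeq2 gave Car3 an adjusted p of 0.000864 (range over all alternatives that compare the groups 0.000864 to 0.756). The adipocyte hormone gene Adipoq did not follow the muscle order, with 0.914 CPM in MBZ_259, the library with the most muscle, 33.3 in NC4 and 25.6 in NC9, against 15.1 in NC10, 6.29 in MBZ_257 and 10.3 in MBZ_254. The summed level of the adipocyte list ran from 694.8 to 2045 CPM in the muscle-rich and from 685.4 to 895.6 in the muscle-poor libraries.

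Tendon and fascia genes were higher in 9 of 11, with a median of 0.75. Cilp, a matrix protein of cartilage and tendon, stood at 262, 308 and 176 CPM against 110, 63.1 and 86, and the groups did not overlap. Its log2 difference was 1.52 ± 0.27 (SE, n = 3 against 3) with an edgeR adjusted p of 0.0772. DESeq2 gave Cilp an adjusted p of 8.11e-06 (range over all alternatives that compare the groups 8.11e-06 to 0.23). Tnc, the matrix protein tenascin C, stood at 649, 544 and 488 CPM against 295, 246 and 426 (log2 difference 0.80 ± 0.24 SE, edgeR adjusted p = 0.534). The list's summed level ran from 3950 to 4477 CPM against 2694 to 4430, so the groups overlapped.

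Connective tissue and vessel genes leaned the same way by less. Fibroblast and collagen genes were higher in 19 of 20 (median 0.33) and endothelial genes in 14 of 18 (median 0.26). MBZ_257 was low for both, with a summed level of 19530 CPM for fibroblast genes against 36650 to 56970 in the other 5 libraries, and of 1251 CPM for endothelial genes against 1548 to 2321. Muscle-poor MBZ_254, at 42740 and 2048 CPM, lay above muscle-rich MBZ_259 and NC9 for both lists. Postn, the matrix protein periostin, stood at 1310, 1310 and 1190 CPM against 997, 468 and 835 (log2 difference 0.73 ± 0.28 SE, edgeR adjusted p = 0.950), with no overlap. Tek, the angiopoietin receptor of endothelium, stood at 36.5, 55.7 and 48 CPM against 30.3, 23.1 and 26.3, also without overlap (log2 difference 0.81 ± 0.20 SE, edgeR adjusted p = 0.263). Nerve genes were higher in 8 of 14 (median 0.10), and keratinocyte genes, of which only 5 passed the filter, in 2 of 5 (median -0.21).

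Smooth muscle genes did not share the direction of the skeletal ones. Of 15 smooth muscle and pericyte genes 4 were higher and 11 lower, with a median of -0.09, and Des, which both muscle types make, was the only one called. Their summed level ran from 1801 to 2345 CPM in the muscle-rich and from 1570 to 2279 in the muscle-poor libraries. Of 10 cardiac muscle genes 4 passed the filter, and Myl4, also an embryonic skeletal gene, was the only one called. Tnnt2, the cardiac troponin T that embryonic skeletal muscle also makes, overlapped at 12.9, 12.6 and 16.6 CPM against 2.73, 12.8 and 4.07. The human table held a mean of 1838 counts at TNNT2 beside 80.2 at mouse Tnnt2.

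White cells of the host leaned in different directions by type, with no gene called. Macrophage genes were lower in 14 of 19 (median -0.19), and 7 of the 19 lay apart on the lower side, where 4.3% of all genes did. Aif1, a calcium-binding protein of macrophages, stood at 31.3, 27 and 39.5 CPM against 51.6, 49.6 and 43.6 (log2 difference -0.56 ± 0.18 SE, edgeR adjusted p = 0.669). Trem2, a lipid receptor of macrophages, stood at 65.6, 56.4 and 70.5 CPM against 84.7, 85.3 and 74.3 (edgeR adjusted p = 1.0). The differences were small and the groups lay close together.

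Antigen presentation genes of the MHC class II and dendritic cell list were lower in 9 of 15 (median -0.34). Cd74, the invariant chain that guides class II molecules, stood at 1700, 1230 and 1420 CPM against 2290, 2040 and 2410, a log2 difference of -0.63 ± 0.20 (SE, n = 3 against 3). The groups did not overlap, the edgeR adjusted p was 0.692 and DESeq2 gave 0.0322, with a range of 0.0322 to 1.0 over all alternatives that compare the groups. Itgax, the integrin CD11c of dendritic cells, stood at 83.9, 72.2 and 81.6 CPM against 114, 111 and 102 (log2 difference -0.46 ± 0.14 SE, edgeR adjusted p = 0.586). Cd209a, Zbtb46 and Clec9a of the same list lay apart on the higher side, with log2 differences of 0.99, 0.33 and 0.62.

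Other white cell lists were small. Mast cell genes were higher in 7 of 8 (median 0.91) and neutrophil genes in 6 of 7 (median 0.52), and Gata2, a mast cell and endothelial factor, stood at 18.4, 15.2 and 13.5 CPM against 9.14, 9.81 and 10.2 (edgeR adjusted p = 0.534). The summed mast cell level did not follow the groups, at 69.1, 153.7 and 96.15 CPM in the muscle-rich and 79.69, 46.04 and 103.6 in the muscle-poor libraries, and that of neutrophil genes overlapped too (210.6 to 387.6 against 166.1 to 240.8 CPM). Natural killer and T cell genes were higher in 9 of 12 (median 0.33), with summed levels of 54.36 to 78.78 CPM against 50.88 to 97.9. B and plasma cell genes were lower in 4 of 4, led by 1 library, as Igkc, the kappa light chain, stood at 146 CPM in MBZ_254 and between 0 and 8.91 elsewhere. The log2 difference of Igkc turned from -3.26 to 5.65 without MBZ_254. Red cell genes were higher in 5 of 5 (median 1.26), with Hba-a2, an alpha-globin, at 690 CPM in NC4 and between 99.9 and 190 in the other 5 libraries.

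Programmes that many host cells share gave small medians. All 13 mitochondrially encoded genes were higher (median 0.52) and 20 of 21 nuclear genes of oxidative phosphorylation (median 0.21). Their summed levels ran from 8629 to 10990 against 5784 to 8474 CPM and from 2704 to 3214 against 2136 to 3100 CPM. Cox5b, a subunit of cytochrome oxidase, stood at 64.6, 55 and 48.2 CPM against 40.4, 33.7 and 38.4, without overlap (log2 difference 0.58 ± 0.16 SE, edgeR adjusted p = 0.461). Immediate early genes were higher in 16 of 17 (median 0.38), and Fos, a part of the AP-1 factor, stood at 64.8, 24.1 and 35.1 CPM against 18.3, 21.5 and 14.9 (edgeR adjusted p = 0.509). MBZ_259 led this list, with a summed level of 1209 CPM against 577.7 to 681.3 in the other 5 libraries. The human table held more counts at FOS (a mean of 892.7 beside 237.2), COX5B (1465 beside 361.5) and MT-ND2 (115500 beside 4041). The part of read division between the species in these host values was not tested. Host cell division genes were higher in 14 of 15 (median 0.25) and interferon genes lower in 11 of 16 (median -0.11), and the summed levels of both lists overlapped between the groups.

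Genes of muscle wasting split 6 higher to 5 lower, with a median of 0.14. Trim63, the fibre-bound ubiquitin ligase MuRF1, was the exception at 19.3, 8.55 and 5.54 CPM against 0.802, 0 and 0 (log2 difference 5.34). It is made in muscle fibres, so like the fibre genes it is described without a test. Map1lc3a, an autophagy protein made in most tissues, stood at 24.8, 28.1 and 16.8 CPM against 14.1, 13 and 12.7 (log2 difference 0.81 ± 0.22 SE, edgeR adjusted p = 0.412).

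Among genes that were lower, 5 were named by the smallest p, and none was called by edgeR. Dnm3os, the non-coding RNA that hosts miRNAs of fibroblasts, stood at 14.2, 19.1 and 20.3 CPM against 50.3, 28.1 and 47.3 (log2 difference -1.23 ± 0.25 SE, edgeR adjusted p = 0.120). Tmem273, a membrane protein, stood at 9.26, 8.3 and 9.12 CPM against 18.9, 16.5 and 16.9 (log2 difference -0.97 ± 0.19 SE, edgeR adjusted p = 0.0952). Cd22, a lectin of B cells and some other white cells, stood at 11.3, 12.6 and 10.5 CPM against 16.2, 20.5 and 21.7 (edgeR adjusted p = 0.314). Amz1 and Aqp2 completed the 5, with log2 differences of -0.78 and -0.71, and none of the 5 overlapped between the groups. DESeq2 gave Dnm3os an adjusted p of 0.0017 and Tmem273 one of 0.00903. The ranges over all alternatives that compare the groups were 0.0017 to 0.443 and 0.00903 to 0.406.

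**Figure D3:**
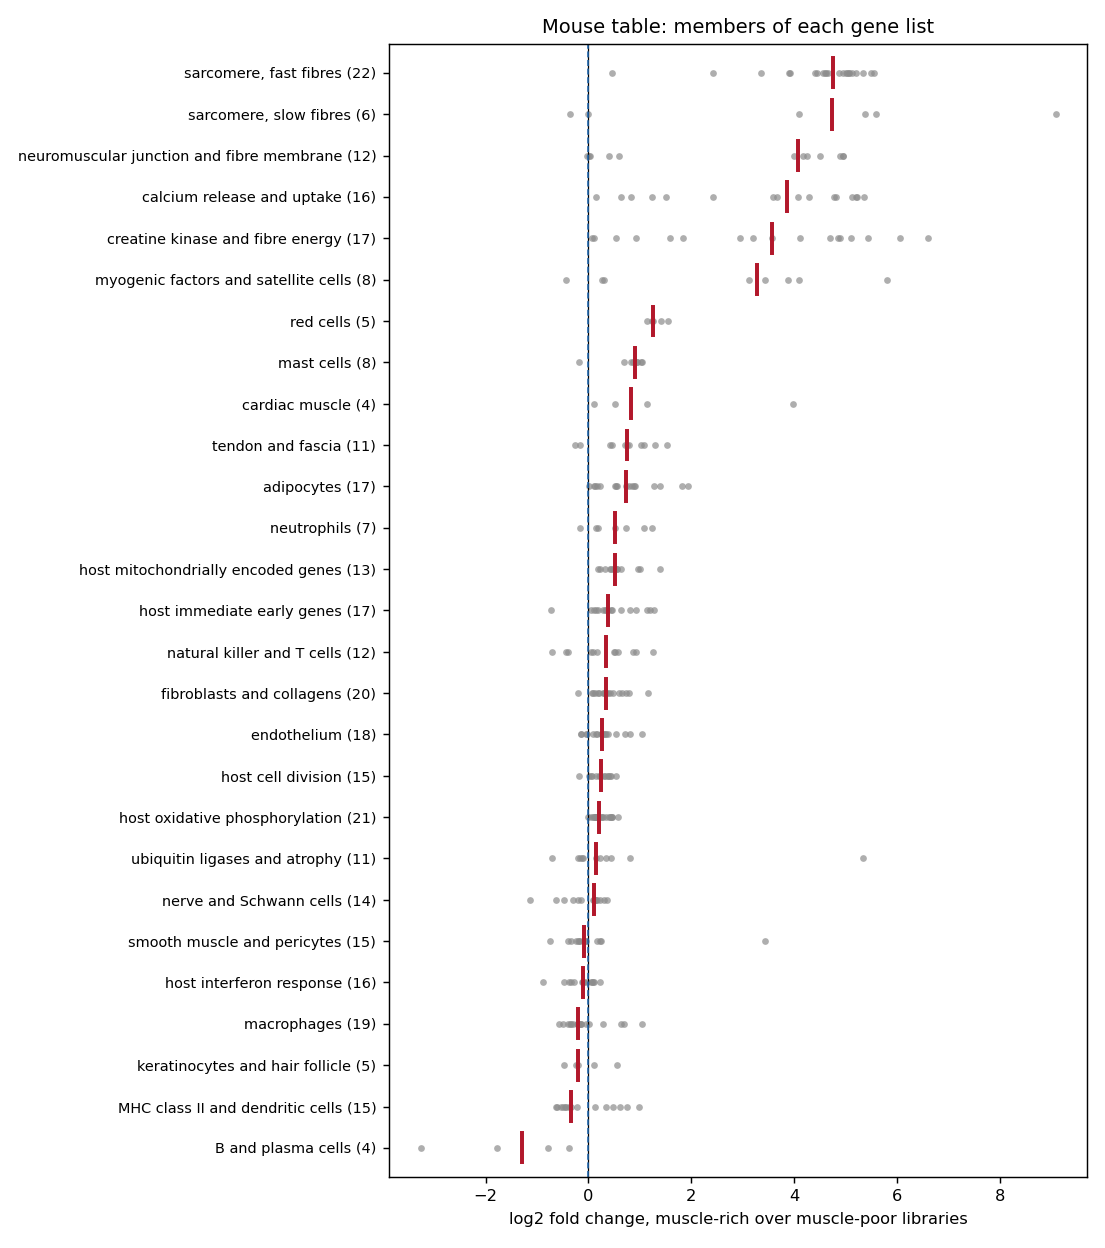
log2 difference between muscle-rich and muscle-poor libraries for each gene (points) of 27 mouse gene lists, with the list median (red bar), 0 (solid line) and the median of all tested genes (dashed line). The 6 skeletal muscle lists have medians from 3.28 to 4.76, and every other list lies between -1.29 and 1.26.

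The human table was compared over the same libraries. Of 18820 genes tested, 12 passed the edgeR test at an adjusted p under 0.05, 11 of them higher in the muscle-rich libraries (0.0584% of those tested) and 1 lower (0.00531%). The 11 were ACTN3, MYH8, TNNC2, ACTA1, DES, TNNI2, ACTN2, MYH13, RYR1, PYGM and POTEKP. All but POTEKP, a pseudogene with an actin-like part, are genes of the muscle fibre. ACTA1 is the human symbol of a sorting gene, and nothing is read from the calls of these fibre genes. Off the muscle lists were MYH8, MYH13 and POTEKP, 3 genes or 0.016% of those off the lists. An unadjusted p under 0.05 was reached by 643 human genes, where 941 would be expected if no gene differed. Leaving out NC4 or MBZ_257 left 0 calls (705 and 1074 genes at an unadjusted p under 0.05), leaving out MBZ_254 left 2 and MBZ_259 3, and DESeq2 called 45.

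For the 4 sorting genes the human counts, like the mouse counts, were higher in every muscle-rich library than in any muscle-poor one. ACTA1 had 3336, 1104 and 953 counts in the human table of MBZ_259, NC4 and NC9 and 78, 23 and 27 in NC10, MBZ_257 and MBZ_254. The mouse table of the same libraries had 18556, 6875 and 6114 Acta1 counts and then 975, 732 and 534. CKM had 1193, 343 and 196 human counts and then 47, 6 and 4, beside 6507, 1960 and 1292 mouse counts and then 203, 2 and 3. Between MBZ_257 and MBZ_254, where counts were few, the tables gave opposite orders for both genes.

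Summed over the 4 genes, the human table held 23.2 counts per 100 mouse counts in MBZ_259, 22.7 in NC4 and 24.8 in NC9, and 17 in NC10. In MBZ_257 and MBZ_254 it held 4.2 and 5.69, on few counts. The rate differed between genes, at 61.5 per 100 for MYH1, 22.2 for MYH4, 4.45 for TNNT3, the fast troponin T, and 4.3 for MYLPF, the fast myosin light chain, over the 3 muscle-rich libraries. MYH1 had 2183, 955 and 1301 human counts and then 84, 2 and 0, beside 2967, 1726 and 2525 mouse counts and then 151, 0 and 8. MYH4 kept a rate of 21.2, 22.8 and 25.2 per 100 in MBZ_259, NC4 and NC9 while its mouse counts were 10579, 3985 and 2757.

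ATP2A1 showed a floor that Atp2a1 lacked. The human table had 1454, 556 and 523 counts in the muscle-rich libraries and 161, 114 and 88 in NC10, MBZ_257 and MBZ_254, where the mouse table had 309, 17 and 8. RYR1 likewise had 188, 206 and 148 human counts in the muscle-poor libraries beside 108, 40 and 29 mouse ones. Above that floor both genes were higher in the muscle-rich libraries, by 2.50 and 1.18 on the log2 scale. Human symbols of widely expressed genes overlapped between the groups, with TPM3 at 668, 710 and 632 CPM against 616, 583 and 645 and ALDOA at 1400, 1710 and 1200 against 1130, 1510 and 1400.

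**Figure D4:**
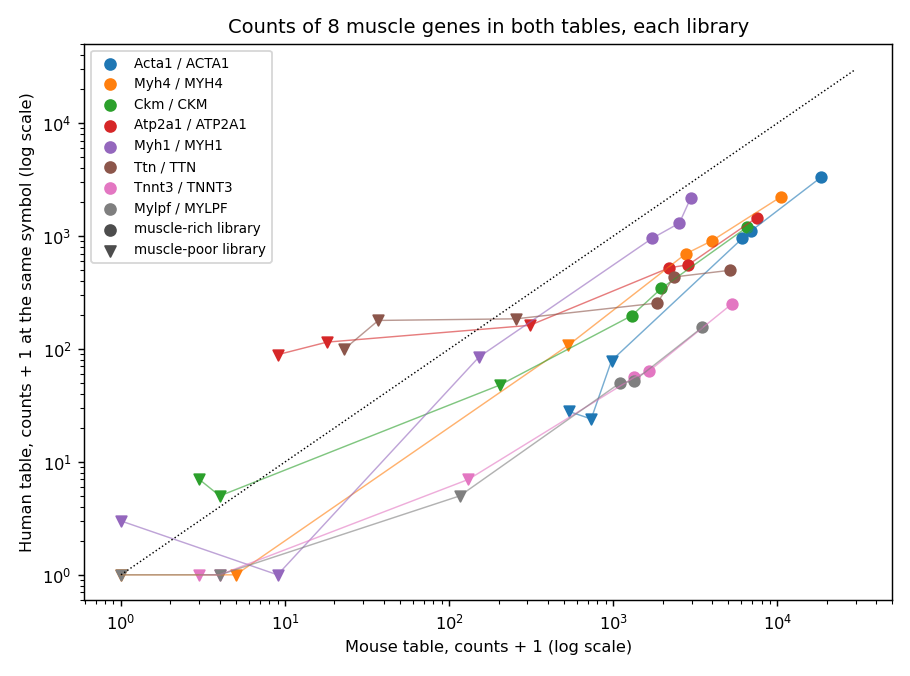
Counts of 8 muscle genes in the mouse table (horizontal, counts + 1, log scale) and at the same symbol in the human table (vertical, counts + 1, log scale), 1 point per gene and library, circles for muscle-rich and triangles for muscle-poor libraries. Muscle-rich points lie below the dotted line of equal counts, at 61.5 human counts per 100 mouse counts for Myh1 and at 4.3 for Mylpf.

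Mouse counts exceeded human counts for 9 of the 11 called human genes that were higher. The other 2 were MYH13, the myosin of eye muscles, with 469, 185 and 288 counts against 21, 2 and 1, and POTEKP, with 144, 59 and 63 against 10, 8 and 6. Mouse Myh13 had a mean of 2.67 counts per library, and MYH13 and POTEKP belong to families of near-identical genes to which reads can be assigned in error. When the 1046 human genes with no more counts than their mouse symbol were left out, 0 of the remaining genes passed the edgeR test, beside 582 at an unadjusted p under 0.05. MYH13, POTEKP and AP002748.4 stayed in this set and lost their calls, MYH13 with an edgeR adjusted p of 0.108 and an almost equal log2 difference (4.95 in both fits). The other 9 called genes were left out by the definition of the set. An adjusted p depends on the other genes tested, so nothing is read from the 0 calls. Over all alternatives that compare the groups, the log2 difference of MYH13 lay between 4.402 and 7.339 and its adjusted p between 9.97e-54 and 0.219. Whether the human counts came from mouse reads was not tested.

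The 1 gene that was lower, AP002748.4, is a gene known only by its clone name and was singled out after its values were seen. It had 0 counts in each muscle-rich library and 29, 42 and 50 counts in NC10, MBZ_257 and MBZ_254 (edgeR adjusted p = 0.0258). It passed the filter on low counts only through the muscle-poor libraries, so nothing is read from its call. No fold is given, since a whole group was at 0. No gene was called lower when NC4, NC9, MBZ_254, MBZ_257 or MBZ_259 was left out, nor among human genes above their mouse symbol.

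Medians of tumour programmes were small, and no member of the 18 lists of tumour genes passed the test. Genes of mitosis were higher in 18 of 20 (median 0.16) and genes of DNA replication in 18 of 20 (median 0.16), where 49.9% of all genes were higher. MKI67, the proliferation marker Ki-67, stood at 227, 251 and 224 CPM against 178, 186 and 196, without overlap (log2 difference 0.32 ± 0.10 SE, edgeR adjusted p = 0.995). RRM2, a subunit of ribonucleotide reductase that supplies DNA building blocks, stood at 121, 121 and 123 CPM against 91.9, 103 and 93 (log2 difference 0.34 ± 0.10 SE, edgeR adjusted p = 0.995). The summed level of mitosis genes overlapped (1611 to 1824 against 1403 to 1615 CPM) and that of replication genes did not (1530 to 1622 against 1347 to 1519 CPM). For 6 of 20 mitosis genes the groups did not overlap on the higher side, where 3.99% of all genes did not.

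Hypoxia and glycolysis genes leaned the other way, with 20 of 23 lower and a median of -0.27. BNIP3L, a mitophagy receptor induced by low oxygen, stood at 114, 121 and 154 CPM against 174, 154 and 183 (log2 difference -0.39 ± 0.14 SE, edgeR adjusted p = 0.995). VEGFA, the vessel growth factor, stood at 561, 923 and 630 CPM against 793, 701 and 1330 and overlapped. ANGPTL4, another target of low oxygen, stood at 48 CPM in MBZ_254 and between 6.53 and 15.7 in the other 5 libraries. The list's summed level overlapped, at 5086 to 7139 CPM against 5410 to 7670.

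Interferon response genes were lower in 20 of 24 (median -0.19) and NF-kB targets and cytokines in 11 of 16 (median -0.31). Summed levels overlapped for both, at 1163 to 1487 against 1042 to 1657 CPM for interferon genes, with muscle-poor MBZ_257 the lowest library, and at 801.8 to 1069 against 956.3 to 1284 CPM for NF-kB targets, with MBZ_254 the highest. CCL20, a chemokine that draws dendritic and other white cells, stood at 2.08, 1.66 and 0.753 CPM against 2.85, 4.29 and 6.96, without overlap (log2 difference -1.66 ± 0.41 SE, edgeR adjusted p = 0.794). DESeq2 gave CCL20 an adjusted p of 0.0162, with a range of 7.4e-07 to 1.0 over all alternatives that compare the groups. CXCL1, a neutrophil chemokine, overlapped at 8.14, 11.5 and 8.53 CPM against 15.7, 10.6 and 28.4.

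Immediate early genes were higher in 18 of 18 (median 0.51), but 1 library led them. FOS stood at 91.8 CPM in MBZ_259 and between 9.07 and 21 in the other 5 libraries, and EGR1 at 192 CPM in MBZ_259 and between 28.2 and 58.6 in the others. Both genes overlapped between the groups (edgeR adjusted p = 0.995 each). Mouse Fos was also highest in MBZ_259, at 64.8 CPM, on 567 counts beside 3318 at human FOS. The part of read division between the species in this value was not tested.

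Metabolic and secretory programmes had medians close to 0. Cholesterol synthesis genes were higher in 14 of 20 (median 0.12), fatty acid genes in 12 of 16 (median 0.12), oxidative phosphorylation genes in 17 of 21 (median 0.11) and stress response genes in 15 of 20 (median 0.16). COX5A, a cytochrome oxidase subunit, stood at 62.3, 59.8 and 53.1 CPM against 47.4, 49.4 and 48.7 (log2 difference 0.27 ± 0.10 SE, edgeR adjusted p = 0.995). Mitochondrially encoded genes were higher in 12 of 13 (median 0.17) and ribosomal protein genes lower in 17 of 22 (median -0.07). Targets of p53 split 9 to 9 (median 0.01), genes of epithelial-mesenchymal transition 11 to 8 (median 0.02) and keratins 8 to 4 (median 0.09). KRT7, an epithelial keratin, was present at 830.0 to 1080 CPM in every library.

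Signals from tumour to muscle and matrix were mixed. Of 10 secreted factors known to act on muscle 5 were higher and 5 lower (median -0.03), and TGF-beta and activin genes split 8 to 10 (median -0.04). INHBA, the activin A subunit, stood at 1.55, 1.35 and 2.16 CPM against 2.66, 2.56 and 3.99 (log2 difference -0.85 ± 0.28 SE, edgeR adjusted p = 0.995), without overlap. The mouse table held more counts at Inhba, a mean of 244 beside 71.33 at INHBA. Whether the human counts came from mouse reads was not tested. CLCF1, a cytokine of the interleukin 6 family, stood at 48.4, 37.3 and 32.3 CPM against 25.7, 30.9 and 28 (log2 difference 0.48 ± 0.16 SE, edgeR adjusted p = 0.995), also without overlap. Both differences were in low to moderate counts and in opposite directions.

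Genes of invasion split 10 to 7 (median 0.12). MMP13, a collagenase, stood at 7.22, 5.37 and 7.33 CPM against 15.1, 11.5 and 9.84 (log2 difference -0.87 ± 0.20 SE, edgeR adjusted p = 0.645). Mouse Mmp13 had more counts, a mean of 467.7 beside 284 at MMP13, and whether the human counts came from mouse reads was not tested. SH3PXD2A, the invadopodium scaffold TKS5, stood at 51.4, 79.9 and 56 CPM against 105, 98.5 and 108 (log2 difference -0.73 ± 0.16 SE, edgeR adjusted p = 0.444). TIMP1, an inhibitor of matrix proteases, stood at 51.6, 50.9 and 32.6 CPM against 23.5, 31.7 and 30.1 (log2 difference 0.66 ± 0.19 SE, edgeR adjusted p = 0.995). The groups did not overlap for any of these 3 genes. DESeq2 gave SH3PXD2A an adjusted p of 0.0112 and MMP13 one of 0.0365. The ranges over all alternatives that compare the groups were 1.95e-05 to 1.0 and 0.00299 to 1.0.

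CP, MAP3K8 and CYP2B7P were the other human genes with the smallest p among those that were lower. CP, the copper protein ceruloplasmin, stood at 101, 91.5 and 94.6 CPM against 148, 117 and 176 (log2 difference -0.62 ± 0.15 SE, edgeR adjusted p = 0.645). MAP3K8, a kinase of the NF-kB and MAP kinase routes, stood at 5.73, 6.65 and 7.6 CPM against 11.4, 10.3 and 11.1 (log2 difference -0.71 ± 0.16 SE, edgeR adjusted p = 0.589). CYP2B7P, a cytochrome P450 pseudogene, stood at 1.41, 1.12 and 1.68 CPM against 2.66, 4.63 and 3.25 (edgeR adjusted p = 0.443). In none of the 3 did the groups overlap. DESeq2 gave CP an adjusted p of 0.0494 and CYP2B7P one of 0.0268. The ranges over all alternatives that compare the groups were 0.00087 to 1.0 and 0.00141 to 1.0.

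**Figure D5:**
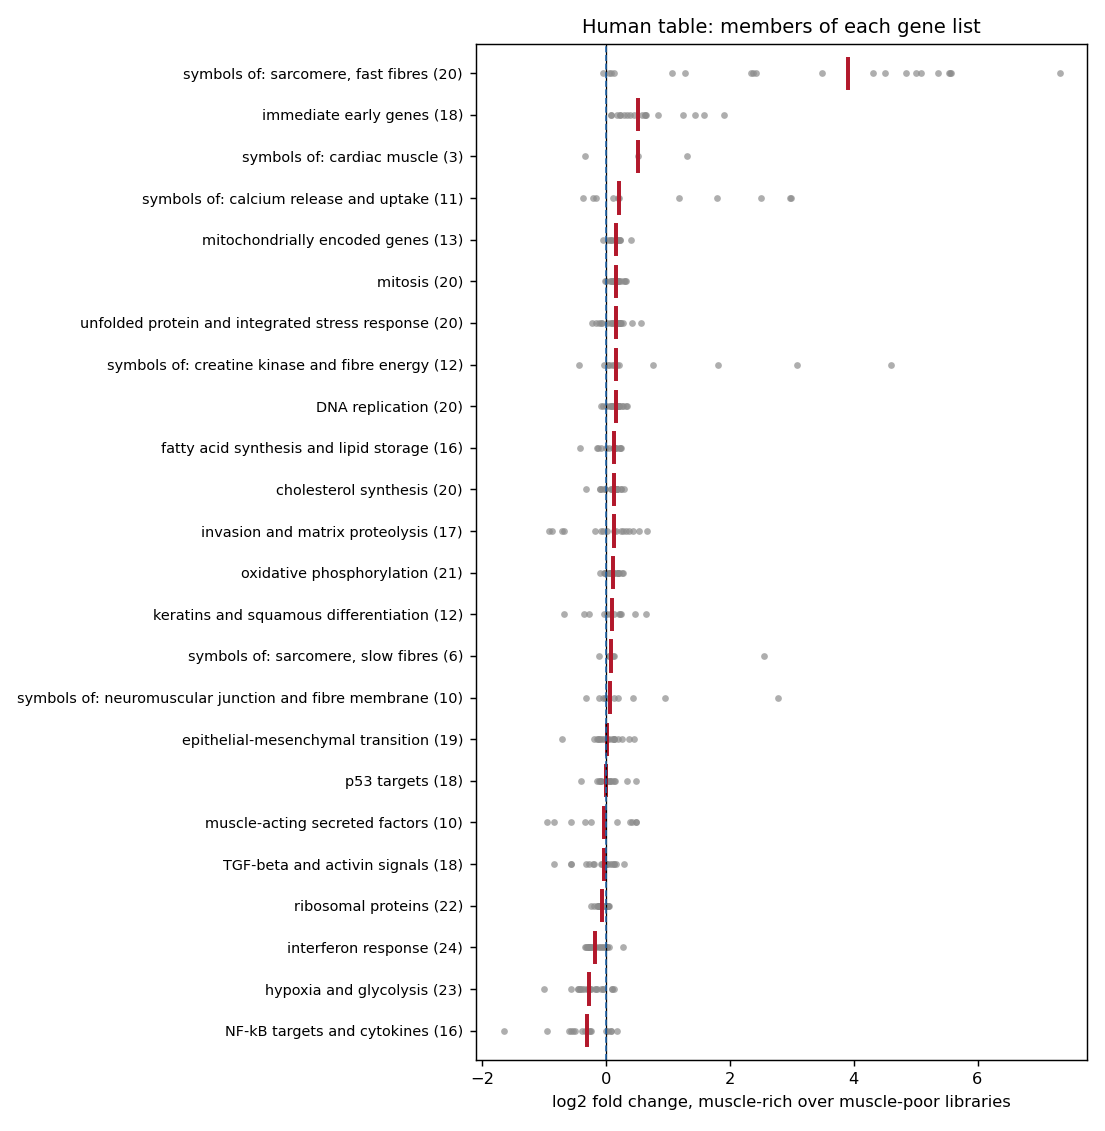
log2 difference between muscle-rich and muscle-poor libraries for each gene (points) of 18 lists of tumour genes and 6 lists of muscle symbols in the human table, with the list median (red bar), 0 (solid line) and the median of all tested genes (dashed line). The fast sarcomere symbols have a median of 3.90, and the medians of the 18 tumour lists lie between -0.31 and 0.51.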

How the data were processed

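RNA was extracted from tumour tissue with TRIzol and libraries were made with the TruSeq kit, per the labels' protocols. The authors deposited 2 tables of estimated counts per gene, 1 human and 1 mouse, and the submitters' processing notes name HISAT2, StringTie, DESeq2, edgeR, GRCh38 and GRCm38 without roles. All were rounded, since 38.0% of human and 27.0% of mouse values above 0 lay more than 0.001 from a whole number. Genes without a name (574 human, 856 mouse) were left out. Replicate numbers in the labels could not be matched to columns.

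Each table was tested as a whole with edgeR 4.0.16 (filterByExpr, TMM, quasi-likelihood F test) in R 4.3.3, with Benjamini-Hochberg adjustment over all genes tested, and DESeq2 1.42.0 and limma-voom 3.58.1 as alternatives. SE is the log2 difference divided by the root of F, and the code was tested on simulated data. The groups rest on 4 muscle genes, so muscle genes are described and nothing is read from their calls in either species. Members and lists were chosen with earlier results of these data known. Named genes are the 4 sorting genes, the 3 of highest level in each muscle list, up to 8 called or 5 uncalled genes by smallest p per direction, and the 2 with the smallest p in each other list. Mouse positions come from GENCODE vM21, which held 99.85% of the named mouse genes.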

Additional observations from a re-analysis of the deposited data

How the results depend on the processing

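No paired analysis was possible because the columns carry no replicate number of the labels. The count of called human genes, 12, was 45 with DESeq2 (34 higher, 11 lower), 2 with limma-voom, 213 with no filter on low counts (141 higher, 72 lower), 28 with the log2 muscle share as a number in place of the groups, and 0 among human genes above their mouse symbol. The mouse count, 46, was 165 with DESeq2, 9 with limma-voom, 227 with no filter, 19 with the treatment label as covariate, 157 with the muscle share as a number and 14 without the skeletal muscle lists. Leaving out 1 library at a time gave 0 to 13 human and 0 to 79 mouse calls. The difference in mouse share ranged from -0.985 (without MBZ_257) to 3.16 percentage points (without MBZ_254). The human rate per 100 mouse counts of the 4 sorting genes, pooled over the muscle-rich libraries with 1 of them left out, ranged from 23.1 to 23.7. In single libraries of both groups it ran from 4.2 in MBZ_257 to 24.8 in NC9. The step between the groups was 1.72-fold over all muscle lists (NC9 over MBZ_257). The log2 difference of Igkc turned to 1.04 with limma-voom and ranged from -3.92 to 5.65 (without MBZ_254) when 1 library was left out, and that of human KRT17 from -1.06 to 0.14 (without MBZ_254). Of the other values, 1632 for single genes stayed the same, and off the muscle lists 37 lost and 30 gained their call. Genes of the muscle lists were judged by their log2 difference alone, and 27 of their values moved by more than the SD within groups. Calls that muscle-list genes lost or gained are not in these counts. Mouse Acta1, for example, was called in 3 of 11 alternatives that compare the groups. Of list medians, 566 stayed and 40 moved. With the treatment label as covariate 12 human genes were called (9 higher, 3 lower), 10 of them shared. The cause of these changes was not tested, beyond the fewer libraries or genes that some settings use. With 3 libraries a group, small differences may go undetected.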
